A study of Mus musculus with 8 samples.

Results

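NRF2, encoded by Nfe2l2, is the transcription factor that switches on a set of antioxidant and detoxifying genes, and its expression was followed here together with that of its inhibitor and a panel of its targets in mouse kidney. The set holds 10 genes, taken by gene name from a table of 54965 genes: Nfe2l2 itself, Keap1, and the targets Gclc, Gclm, Gsr, G6pdx, Srxn1, Txnrd1, Nqo1 and Osgin1. All 10 were found and all 10 passed the filter on low values, which kept 13304 genes averaging 1 FPKM or more across all 8 libraries. FPKM counts sequenced fragments per unit of gene length and divides them by a library size, so levels of different genes can be compared. KEAP1 binds NRF2 in the cytoplasm and presents it to a ubiquitin ligase, so that the protein is degraded in unstressed cells. Oxidants and electrophiles modify cysteines of KEAP1, NRF2 then accumulates, enters the nucleus, pairs with a small MAF protein and binds the antioxidant response element in front of its targets. Because this control acts mostly on the protein, the level of Nfe2l2 mRNA is not a measure of NRF2 activity. In kidney the proximal tubule, which is rich in mitochondria, is the main site of injury by ischaemia and reperfusion.

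The study compared whole kidneys of mice carrying a deletion of Utx, also called Kdm6a, driven by Pax2-Cre, with those of wild-type mice, each with and without ischaemia-reperfusion (I/R), in which blood flow to the kidney is stopped and then restored. The 4 groups of 2 libraries each were knockout kidneys 3 days after I/R (KO I/R), wild-type kidneys 3 days after I/R (WT I/R), knockout kidneys with no I/R in their labels (KO) and wild-type kidneys with no I/R in their labels (WT). KDM6A removes a repressive methyl mark from histone H3. The labels name the genotype UtxPax2 Cre and give no genotype for the Cre or the floxed allele in WT mice. Pax2-Cre acts in the lineage that forms nephron and collecting duct epithelium, so other cells of a whole kidney are not its target. The shared protocol speaks of a sham operation, but no label says which libraries had one. The labels do not give age, sex or the animals behind each library, so the p-values below measure the spread between libraries, which may be technical. In whole-kidney RNA, fewer cells of a type and less RNA per cell cannot be told apart.

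Each library held between 16780542 and 18497835 reads in genes, and the members received between 571 and 7348 reads each. Kdm6a, the targeted gene, had 1.59 and 1.83 FPKM in KO I/R, 3.00 and 2.97 in WT I/R, 1.99 and 1.91 in KO and 2.57 and 2.94 in WT, so both knockout groups lay below their wild-type groups without overlap. The difference passed the test after I/R (log2 difference -0.56, adjusted p = 0.0295) and not without it (-0.35, adjusted p = 0.431), and the call after I/R was lost without any 1 of the 4 I/R libraries (adjusted p between 0.110 and 0.20). Havcr1, which encodes the kidney injury protein KIM-1, rose after I/R in both genotypes and averaged 89.9 ± 0.40 FPKM in KO I/R, 223 ± 26.3 in WT I/R, 1.2 ± 0.086 in KO and 0.911 ± 0.23 in WT (SD, n = 2). Lcn2, another injury marker, averaged 24.7 ± 4.66 FPKM in KO I/R, 105 ± 27.3 in WT I/R, 0.848 ± 0.44 in KO and 0.622 ± 0.046 in WT (SD, n = 2). Markers of proximal tubule, 12 genes, summed to between 12856 and 14463 FPKM in KO I/R, 8268 and 10804 in WT I/R, 27038 and 38657 in KO and 30267 and 31270 in WT. Most of each sum came from 1 gene, Kap, which averaged 10247 FPKM in KO I/R, 7137 in WT I/R, 28182 in KO and 25971 in WT. Over the 12 genes the median log2 difference after I/R was -0.32 in KO and -0.94 in WT. Macrophage markers, 10 genes, summed to between 285 and 300 FPKM in KO I/R, 383 and 419 in WT I/R, 81.6 and 92.0 in KO and 73.4 and 121 in WT. No marker gene of either list was at 0 in all libraries of a group.

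The antioxidant response element is short and can be looked for in the letters of a promoter. RefSeq promoter windows on GRCm38.p6 were given for 8 of the 10 members, all except Gclc and Gsr, and the 250 bases before each start were searched on both strands. The core spelling TGACNNNGC was present in 10.2% of 32851 windows over all genes and in 4 of the 10 windows of the members. These were the windows of Nfe2l2, Gclm and G6pdx and the Txnrd1 window that begins at 82858956, while the other Txnrd1 windows had no match. All 250 bases of the G6pdx window lie in an annotated exon of G6pdx. The spelling TGANTCAGC, called strict here because it fixes more letters, contains the AP-1 site TGANTCA and so overlaps it. It was present in 1.02% of windows and, among the members, in those of Srxn1 and Osgin1. Both matches read TGAGTCAGC, for Osgin1 on the opposite strand. The core spelling does not cover these letters, and neither window held the core. TGANTCA by itself was present in 6.75% of windows and again, among the members, in those of Srxn1 and Osgin1. These letters are a description of the windows and do not show binding. Srxn1 and Osgin1 are printed because they carry the strict spelling and differed most from each other after I/R in WT. Gclm is printed as a target with the core spelling and not the strict one. The Osgin1 window and the Txnrd1 window with a match lie inside the annotated spans of their genes, before an internal start. Those spans begin at 119434124 for Osgin1 and at 82833951 for Txnrd1. All 3 windows run 5′ to 3′ on the plus strand and stop where an annotated exon begins, with matches in capitals.
Srxn1, chr2:152105274-152105515, strict element at 45 bases before the start and a separate AP-1 site at 102: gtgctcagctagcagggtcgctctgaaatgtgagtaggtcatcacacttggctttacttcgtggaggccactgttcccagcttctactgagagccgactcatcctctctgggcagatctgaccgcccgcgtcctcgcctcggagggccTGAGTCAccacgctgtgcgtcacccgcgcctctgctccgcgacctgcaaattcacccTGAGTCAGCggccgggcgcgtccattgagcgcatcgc
Osgin1, chr8:119436897-119437117, strict element in reverse orientation at 99 bases before the start: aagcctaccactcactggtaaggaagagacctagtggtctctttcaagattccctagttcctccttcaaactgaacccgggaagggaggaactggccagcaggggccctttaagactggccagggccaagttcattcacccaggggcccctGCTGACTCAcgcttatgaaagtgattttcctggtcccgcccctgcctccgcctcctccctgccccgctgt
Gclm, chr3:122245307-122245556, core element in reverse orientation at 134 bases before the start: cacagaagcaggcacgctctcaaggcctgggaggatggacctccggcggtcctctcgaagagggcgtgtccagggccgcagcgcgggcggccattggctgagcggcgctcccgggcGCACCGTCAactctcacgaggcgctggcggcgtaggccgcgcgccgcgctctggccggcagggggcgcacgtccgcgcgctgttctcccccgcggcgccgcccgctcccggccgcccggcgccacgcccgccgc

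In KO kidneys 4 members fell after I/R (Nqo1, Gclm, Gclc and Gsr) and 0 rose, where 20.7% of all tested genes passed. In WT kidneys the set did not move one way after I/R: 3 members rose (Srxn1, Nfe2l2 and G6pdx), 3 fell (Osgin1, Nqo1 and Gsr), and Keap1, Gclc, Gclm and Txnrd1 did not pass the test, where 37.5% of all tested genes passed. Both splits depended on the scale of the libraries. With each library rescaled to the same summed FPKM, Nfe2l2, G6pdx and Srxn1 passed as higher in KO and only Nqo1 as lower. On that scale Srxn1, Nfe2l2, G6pdx, Gclc and Txnrd1 passed as higher in WT and only Osgin1 as lower. Between KO and WT kidneys 0 members passed after I/R, where 6.01% of genes did, and 0 without I/R, where 0.00752% did. Proximal tubule markers were lower after I/R for 4 of 12 genes in KO and 10 of 12 in WT, and their part in the falls of members was not tested. Calls come from limma on log2(FPKM + 1) over all 13304 genes, two-sided, at an adjusted p under 0.05 by the Benjamini-Hochberg method. All log2 differences below are on that scale, which understates changes of genes at low FPKM.

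**Figure D1:**
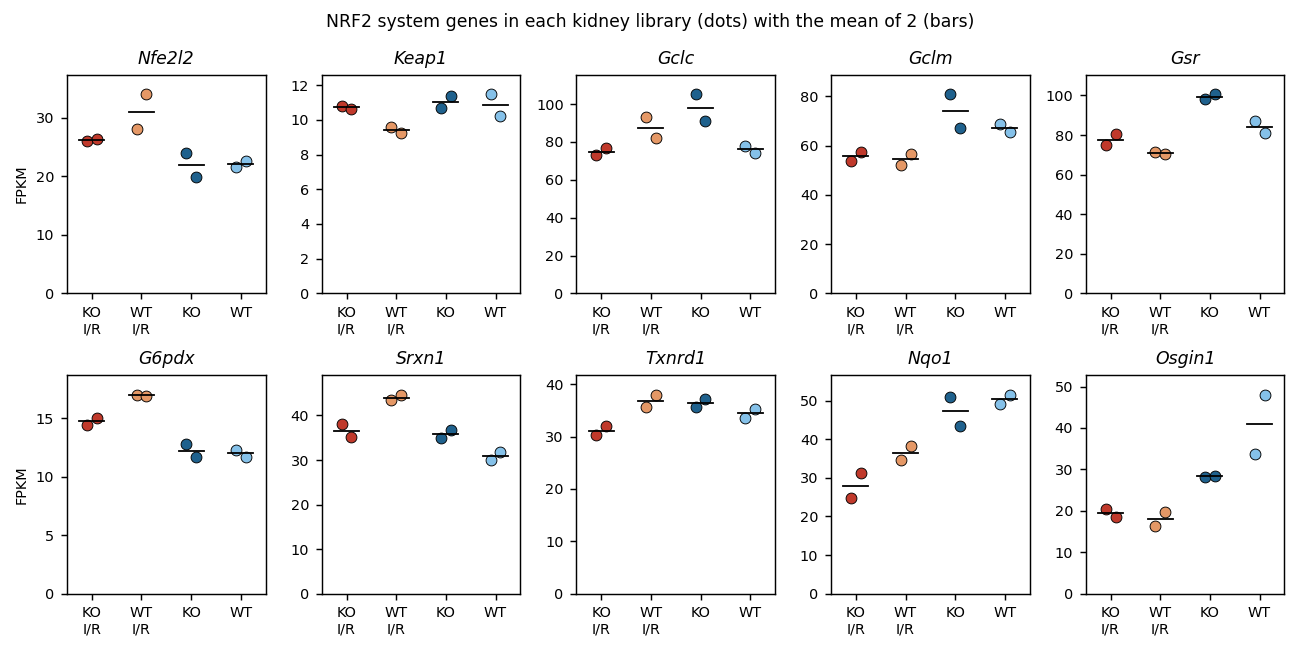
FPKM of each of the 10 genes (vertical axis, from 0) in the 2 libraries of KO I/R, WT I/R, KO and WT (dots, with bars for the mean of 2). Osgin1 and Nqo1 sit lower in both I/R groups than in both groups without I/R, while Nfe2l2 and G6pdx sit higher.

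Nfe2l2 (chromosome 2, 75675513 to 75704641, minus strand, GRCm38) had 26.0 and 26.3 FPKM in KO I/R, 28.0 and 34.0 in WT I/R, 24.0 and 19.9 in KO and 21.5 and 22.6 in WT. The I/R libraries of each genotype lay above those without I/R, and KO I/R lay just below WT I/R. Nfe2l2 rose after I/R in WT by 0.47 ± 0.12 (SE) on the log2 scale (adjusted p = 0.0201), or 1.41 times on the mean FPKM. After I/R in KO the difference was 0.25 ± 0.12 (adjusted p = 0.183). The call in WT was lost without WT library 1 (0.43, adjusted p = 0.0901), WT library 2 (0.50, adjusted p = 0.0676) or WT I/R library 2 (0.33, adjusted p = 0.0997).

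Keap1 (chromosome 9, 21229730 to 21239361, minus strand), the inhibitor, stayed within a narrow range. It had 10.8 and 10.6 FPKM in KO I/R, 9.58 and 9.27 in WT I/R, 10.7 and 11.4 in KO and 11.5 and 10.3 in WT. The WT I/R libraries were the lowest of the 8, and the KO I/R libraries overlapped those of KO. Neither difference passed the test: -0.03 ± 0.077 after I/R in KO (adjusted p = 0.786) and -0.18 ± 0.077 after I/R in WT (adjusted p = 0.106). With each library rescaled to the same summed FPKM both turned positive, 0.20 in KO and 0.09 in WT. Nfe2l2 FPKM divided by Keap1 FPKM within a library came to 2.41 and 2.47 in KO I/R, 2.92 and 3.66 in WT I/R, 2.25 and 1.76 in KO and 1.88 and 2.20 in WT. The ratio was thus higher in both WT I/R libraries than in any other, and in each genotype the I/R and no-I/R libraries did not overlap.

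Gclc and Gclm encode the catalytic and the modifier subunit of glutamate-cysteine ligase, the rate-limiting step of glutathione synthesis. Gclc (chromosome 9, 77754535 to 77794485, plus strand) had 73.1 and 76.8 FPKM in KO I/R, 93.4 and 81.9 in WT I/R, 105.1 and 91.2 in KO and 77.7 and 74.4 in WT. In KO kidneys the I/R libraries were the lower pair, and in WT kidneys they were the higher pair, with no overlap in either genotype. Gclc fell after I/R in KO by 0.38 ± 0.10 on the log2 scale (adjusted p = 0.0380), while in WT the difference was 0.20 ± 0.10 (adjusted p = 0.163). The difference between those differences was -0.58 ± 0.14 and did not pass its own test (adjusted p = 0.125). With libraries rescaled to the same sum, the difference in KO came to -0.13 and did not pass (adjusted p = 0.337). On that scale the rise in WT passed (0.50, adjusted p = 0.0050). The call in KO was lost without KO library 1 (-0.28, adjusted p = 0.135), KO I/R library 1 (-0.35, adjusted p = 0.171), KO I/R library 2 (-0.42, adjusted p = 0.144), WT library 1 (-0.38, adjusted p = 0.0650) or WT library 2 (-0.38, adjusted p = 0.0652), where the last pair enters only through the shared spread.

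Gclm (chromosome 3, 122245557 to 122270732, plus strand) had 53.9 and 57.6 FPKM in KO I/R, 52.3 and 56.8 in WT I/R, 80.8 and 67.1 in KO and 68.7 and 65.4 in WT. All 4 I/R libraries lay below all 4 libraries without I/R. Gclm fell after I/R in KO by 0.40 ± 0.10 on the log2 scale (adjusted p = 0.0378), and the difference in WT was -0.29 ± 0.10 (adjusted p = 0.0625). With libraries rescaled to the same sum, the difference in KO came to -0.14 and did not pass (adjusted p = 0.268). That call in KO was among the least stable: it held in 5 of 16 settings, and of the 8 libraries only leaving out KO library 2 kept it. Gclc FPKM divided by Gclm FPKM was 1.36 and 1.33 in KO I/R, 1.79 and 1.44 in WT I/R, 1.30 and 1.36 in KO and 1.13 and 1.14 in WT. The WT I/R ratios were the highest and the WT ratios the lowest, while KO I/R and KO overlapped.

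Gsr, glutathione reductase, returns oxidised glutathione to its reduced form with NADPH, and it had the highest mean FPKM of the members in every group except WT I/R. Gsr (chromosome 8, 33652523 to 33698163, plus strand) had 74.7 and 80.3 FPKM in KO I/R, 71.3 and 70.3 in WT I/R, 98.1 and 100.5 in KO and 87.2 and 81.1 in WT. The I/R pair was the lower one in each genotype. Gsr fell after I/R by 0.35 ± 0.074 on the log2 scale in KO (adjusted p = 0.0187) and by 0.25 ± 0.074 in WT (adjusted p = 0.0374). When each library was rescaled to the same summed FPKM, the difference in KO came to -0.10 and did not pass (adjusted p = 0.471). On that scale the fall in WT turned into a difference of 0.05 (adjusted p = 0.693). It also lost its call without any 1 of the WT, WT I/R and KO I/R libraries (adjusted p between 0.0676 and 0.192), and the call in KO was lost without KO I/R library 1 (adjusted p = 0.124) or 2 (adjusted p = 0.0847).

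G6pdx encodes glucose-6-phosphate dehydrogenase, the entry enzyme of the pentose phosphate pathway and a main source of NADPH. G6pdx (chromosome X, 74409483 to 74429194, minus strand) had 14.5 and 15.0 FPKM in KO I/R, 17.0 and 16.9 in WT I/R, 12.8 and 11.7 in KO and 12.3 and 11.7 in WT. All 4 I/R libraries lay above all 4 without I/R, with WT I/R the highest. G6pdx rose after I/R in WT by 0.47 ± 0.073 on the log2 scale (adjusted p = 0.00291), a call that held in all 16 settings. In KO the difference was 0.25 ± 0.073 and just missed the test (adjusted p = 0.0518). The span of G6pdx, introns included, shares 19712 bases with that of Ikbkg on the opposite strand. Overlap of their exons was not measured and strand use in counting is not given. How far the counts of this pair are mixed is therefore not known. Ikbkg held up to 972 reads in a library, and G6pdx at least 571. No gene overlapping another member held more than 27 reads.

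Srxn1, sulfiredoxin, repairs over-oxidised peroxiredoxins. Srxn1 (chromosome 2, 152105516 to 152111376, plus strand) had 38.2 and 35.1 FPKM in KO I/R, 43.4 and 44.7 in WT I/R, 34.8 and 36.7 in KO and 29.9 and 31.9 in WT. The WT I/R libraries were the highest and the WT libraries the lowest, and the KO I/R and KO libraries overlapped between them. Srxn1 rose after I/R in WT by 0.50 ± 0.075 on the log2 scale (adjusted p = 0.00253), which held in all 16 settings. After I/R in KO the difference was 0.03 ± 0.075, with a 95% interval of -0.15 to 0.21 (adjusted p = 0.787). The difference between the genotypes in their I/R difference was -0.46 ± 0.11, and it did not pass the test (adjusted p = 0.112).

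Txnrd1 encodes the cytosolic thioredoxin reductase, a selenoenzyme that keeps thioredoxin reduced. Txnrd1 (chromosome 10, 82833951 to 82897712, plus strand) had 30.3 and 32.1 FPKM in KO I/R, 35.7 and 38.0 in WT I/R, 35.6 and 37.2 in KO and 33.6 and 35.3 in WT. The KO I/R libraries were the lowest of the 8. As for Gclc, the I/R pair was the lower one in KO and the higher one in WT, without overlap, but no difference passed the test: -0.22 ± 0.072 in KO (adjusted p = 0.0749), 0.09 ± 0.072 in WT (adjusted p = 0.345) and -0.31 ± 0.10 between them (adjusted p = 0.198). With libraries rescaled to the same sum the difference in KO turned to 0.03, so the opposite directions rest on the deposited scale.

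Nqo1, a quinone reductase widely used as a readout of NRF2, was lower after I/R. Nqo1 (chromosome 8, 107388225 to 107403206, minus strand) had 24.7 and 31.2 FPKM in KO I/R, 34.7 and 38.2 in WT I/R, 51.0 and 43.4 in KO and 49.1 and 51.5 in WT. All 4 I/R libraries lay below all 4 without I/R, and the KO I/R libraries were the lowest. Nqo1 fell after I/R by 0.74 ± 0.13 on the log2 scale in KO (adjusted p = 0.0109) and by 0.46 ± 0.13 in WT (adjusted p = 0.0311). The difference between these was -0.29 ± 0.18 (adjusted p = 0.472). With libraries rescaled to the same sum, the difference in WT came to -0.16 and did not pass (adjusted p = 0.299). On that scale the fall in KO still passed (-0.49, adjusted p = 0.0284). The call in WT was lost without any 1 of the 4 WT and WT I/R libraries (adjusted p between 0.0664 and 0.141), and the call in KO without KO library 1 (adjusted p = 0.0508) or KO I/R library 1 (adjusted p = 0.0559).

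Osgin1, an oxidative stress-induced growth inhibitor, had the largest I/R difference of the members in WT. Osgin1 (chromosome 8, 119434124 to 119446256, plus strand) had 20.4 and 18.5 FPKM in KO I/R, 16.4 and 19.7 in WT I/R, 28.2 and 28.4 in KO and 33.8 and 48.0 in WT. The 4 I/R libraries lay below the 4 others, and the WT libraries differed widely from each other. It fell after I/R in WT by 1.12 ± 0.17 on the log2 scale (adjusted p = 0.00226), to 0.442 times the mean FPKM of WT, and this held in all 16 settings. After I/R in KO the difference was -0.52 ± 0.17 (adjusted p = 0.0670). Srxn1 FPKM divided by Osgin1 FPKM was 1.87 and 1.90 in KO I/R, 2.64 and 2.26 in WT I/R, 1.23 and 1.29 in KO and 0.886 and 0.664 in WT. This pair was chosen for its difference after I/R in WT, so the ratio is given as a description. Nqo1 FPKM divided by Srxn1 FPKM was 0.646 and 0.890 in KO I/R, 0.80 and 0.855 in WT I/R, 1.46 and 1.18 in KO and 1.64 and 1.61 in WT. That ratio was lower in all 4 I/R libraries than in the 4 without I/R.

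**Figure D2:**
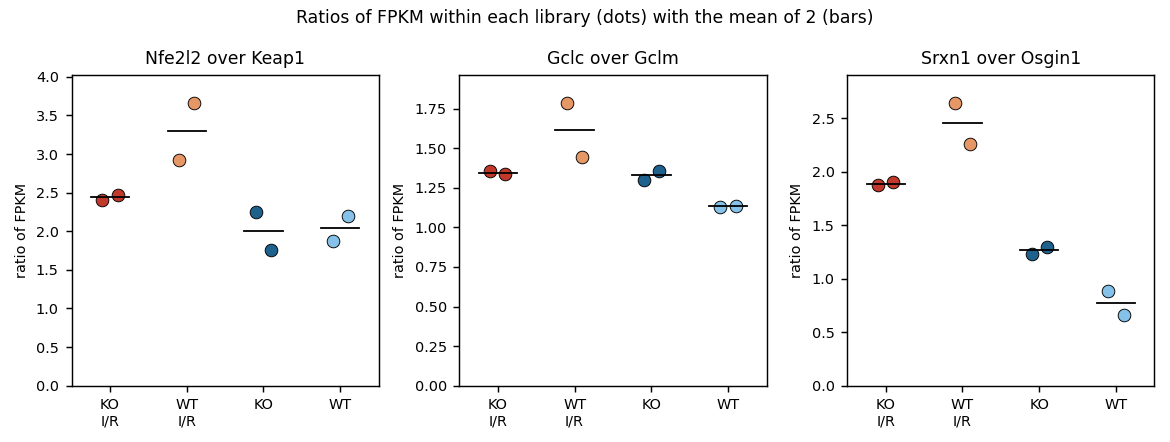
Ratio of 2 genes' FPKM within each library (vertical axes, from 0) for Nfe2l2 over Keap1, Gclc over Gclm and Srxn1 over Osgin1, with dots for libraries and bars for the mean of 2. Each of the 3 ratios shown is highest in WT I/R; the pair Srxn1 and Osgin1 was chosen for its difference there.

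Counts of called members were read against those of all genes. After I/R in KO, 4 of 10 members passed against 20.7% of all tested genes, 0 higher against 8.95% and 4 lower against 11.7%. No overlap between KO I/R and KO was seen for 8 of 10 members and 63.6% of genes. After I/R in WT, 6 of 10 members passed, where 37.5% of all tested genes did, and 3 of 10 were higher against 17.4% of all genes and 3 lower against 20.1%. All 10 members had no overlap between WT I/R and WT, as did 71.9% of all genes. The median log2 difference of the members was -0.29 after I/R in KO and -0.04 after I/R in WT, where all genes had medians of -0.03 and -0.03. The call counts rested on few libraries: in KO, 0 members passed without KO I/R library 1 and 1 without KO I/R library 2 or KO library 1, and in WT 3 passed without WT library 1, WT library 2 or WT I/R library 2.

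The scale of the libraries matters for the direction of small differences. With each library rescaled to the same summed FPKM, the median log2 difference of all genes moved up by 0.21 for I/R in KO and by 0.25 for I/R in WT. On that scale 3 members were called higher and 1 lower in KO (Nfe2l2, G6pdx and Srxn1, against Nqo1), and 5 higher and 1 lower in WT (Srxn1, Nfe2l2, G6pdx, Gclc and Txnrd1, against Osgin1). Of all 13304 genes, 2755 were called higher and 508 lower in KO on that scale, and 4791 higher and 1236 lower in WT. Taken relative to the median gene, Nqo1 in KO came to -0.71 as deposited and -0.67 rescaled, Gclm to -0.37 and -0.32, Gclc to -0.35 and -0.31 and Gsr to -0.32 and -0.28. Srxn1 in WT was 0.53 higher as deposited and 0.57 rescaled, Nfe2l2 0.50 and 0.54, and G6pdx 0.49 and 0.53. Osgin1 in WT came to -1.09 as deposited and -1.05 rescaled, Nqo1 to -0.43 and -0.38, and Gsr to -0.22 and -0.17. Rescaling multiplies every gene of a library by the same factor, so values relative to the median gene stay close by construction.

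**Figure D3:**
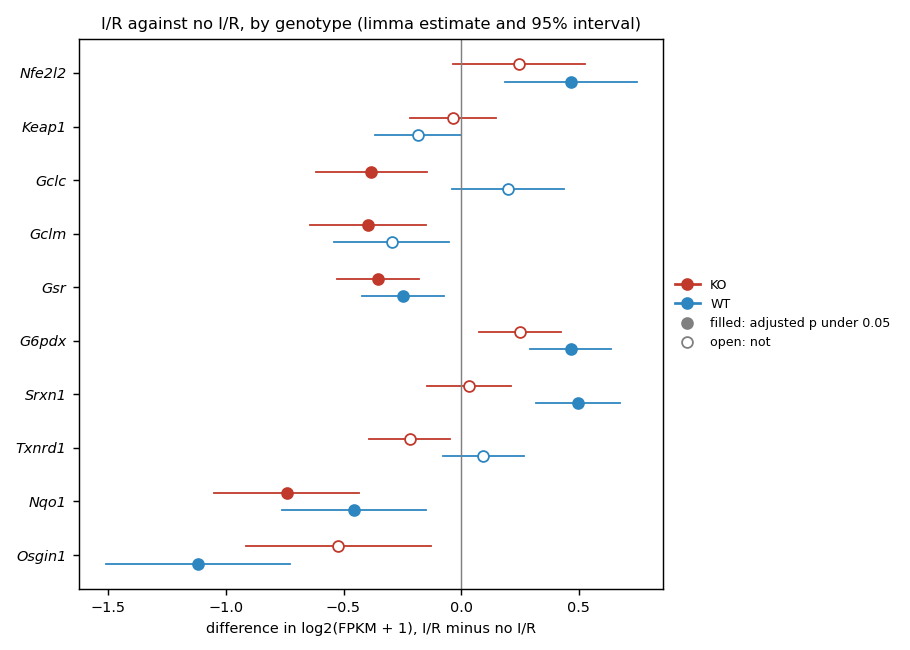
Log2 difference of I/R against no I/R for each gene in KO (red) and WT (blue), with the 95% interval of the limma estimate as a line and filled dots for adjusted p under 0.05. Gclc and Txnrd1 point in opposite directions in the 2 genotypes; with libraries rescaled to the same sum Txnrd1 in KO comes to 0.03 and Gsr in WT to 0.05.

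Without I/R, 0 of 10 members passed the test between KO and WT kidneys, where 0.00752% of all genes (1 gene) did. At an unadjusted p under 0.05 there were 4 members and 1233 genes, and limma-voom on reads called 0 of each. Gclc, Srxn1, Txnrd1 and Gsr were higher in both KO libraries than in both WT libraries, and Osgin1 was lower, so that 5 of 10 did not overlap, as against 38% of all genes. Gclc averaged 98.2 ± 9.82 FPKM in KO and 76.0 ± 2.34 in WT (SD, n = 2 each), a log2 difference of 0.36 with a 95% interval of 0.12 to 0.60 before adjustment (adjusted p = 0.431). Osgin1 averaged 28.3 ± 0.095 FPKM in KO and 40.9 ± 10.1 in WT (SD, n = 2 each), a log2 difference of -0.49 with an interval of -0.89 to -0.10 (adjusted p = 0.466). The other 8 members lay between -0.09 for Nqo1 and 0.24 for Gsr.

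After I/R, 0 of 10 members passed the test between KO and WT kidneys, where 6.01% of all genes did, and limma-voom on reads called 0 members as well. At an unadjusted p under 0.05 there were 3226 of 13304 genes and 4 members, Srxn1, Txnrd1, Nqo1 and G6pdx, all lower in KO I/R. Nfe2l2, Nqo1, Gclc, Srxn1, Txnrd1 and G6pdx were lower in both KO I/R libraries than in both WT I/R libraries, and Keap1 and Gsr were higher. These 8 of 10 compare with 58.3% of all genes, and the 6 lower and 2 higher with 28.6% and 29.7%. Srxn1 came closest to the threshold and averaged 36.6 ± 2.18 FPKM in KO I/R and 44.0 ± 0.913 in WT I/R (SD, n = 2 each), with a log2 difference of -0.26 ± 0.075 (adjusted p = 0.0924). It passed when libraries were rescaled to the same sum (-0.37, adjusted p = 0.0442). Nqo1 differed most, with 27.9 ± 4.64 FPKM in KO I/R and 36.4 ± 2.48 in WT I/R (SD, n = 2 each) and a log2 difference of -0.38 ± 0.13 (adjusted p = 0.133). The median of the members was -0.20, against 0.01 for all genes. Both I/R comparisons and both genotype comparisons use the same 4 groups, so these values share libraries.

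**Figure D4:**
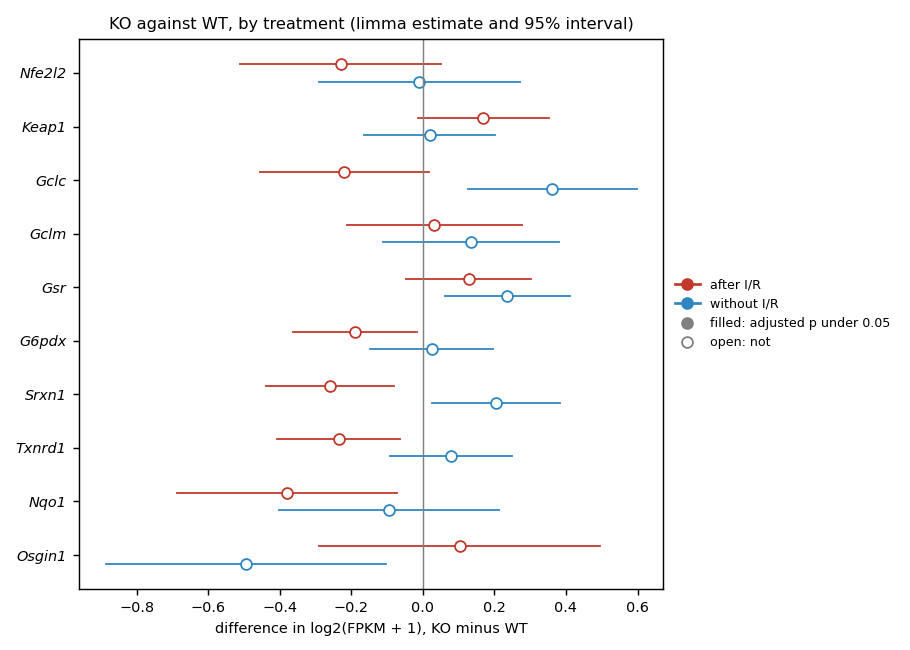
Log2 difference of KO against WT for each gene after I/R (red) and without I/R (blue), with the 95% interval of the limma estimate as a line; dots are open because no adjusted p was under 0.05. After I/R the estimates for Nqo1, Srxn1, Txnrd1, Nfe2l2, Gclc and G6pdx lie below 0, between -0.38 and -0.19.

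The difference in the I/R difference between genotypes was tested directly, and 0 of 10 members passed, where 0.286% of all genes did. At an unadjusted p under 0.05 there were 2308 of 13304 genes and 4 members. These were Gclc (-0.58), Srxn1 (-0.46) and Txnrd1 (-0.31) on one side and Osgin1 (0.60) on the other. Limma-voom called 0 members here too. The libraries of Gclc and Txnrd1 moved in opposite directions in the 2 genotypes without overlap as deposited, which was also true of 4.07% of all genes.

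Levels differed between members more than between groups. In KO I/R the order from high to low was Gsr, Gclc, Gclm, Srxn1, Txnrd1, Nqo1, Nfe2l2, Osgin1, G6pdx and Keap1, where the libraries of Gsr and Gclc, of Txnrd1 and Nqo1, and of Nqo1 and Nfe2l2 overlapped. In WT I/R, Gclc led Gsr without overlap, followed by Gclm, Srxn1, Txnrd1, Nqo1, Nfe2l2, Osgin1, G6pdx and Keap1, where Txnrd1 and Nqo1 and then Osgin1 and G6pdx overlapped. In KO the order was Gsr, Gclc, Gclm, Nqo1, Txnrd1, Srxn1, Osgin1, Nfe2l2, G6pdx and Keap1, where Gsr and Gclc and then Txnrd1 and Srxn1 overlapped. In WT the order was Gsr, Gclc, Gclm, Nqo1, Osgin1, Txnrd1, Srxn1, Nfe2l2, G6pdx and Keap1, where only Osgin1 and Txnrd1 overlapped. Nqo1 stood above Srxn1 in both groups without I/R and below it in both I/R groups.

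Profiles over the 8 libraries were set side by side by the root mean square difference of log2(FPKM + 1), each gene centred on its own mean, as a description. Of 45 pairs of members, Nfe2l2 and G6pdx were most alike (0.0857), followed by Gclm and Gsr (0.0993), and Osgin1 and G6pdx least (0.647). Among all other tested genes, Rbbp8 (0.0548), Spcs3 (0.0558) and Dynll1 (0.0560) came closest to Nfe2l2, and Yipf2 (0.0300), Exoc3 (0.0301) and Med24 (0.0323) closest to Keap1. For Nqo1 the closest were Gm43158 (0.120), Gsta3 (0.125) and Hsp90aa1 (0.130). For Srxn1 they were Stbd1 (0.0228), Snx12 (0.0499) and Armc7 (0.0532).

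Around the members, the wider redox genes were read in 8 lists. Beside the list counts below, all 13304 tested genes had 1191 higher and 1557 lower after I/R in KO, and 2319 higher and 2673 lower in WT. With equal sums they had 2755 higher and 508 lower in KO, and 4791 higher and 1236 lower in WT. Of 27 called values of the genes named from these lists and the injury list for I/R in KO, 18 were lost without KO I/R library 2, 14 without KO I/R library 1 and 7 without KO library 1. Of 31 for I/R in WT, between 0 and 4 were lost without any 1 library, those of Cul3, Dpp3, Ncf4 and Prdx5. NRF2 pathway regulators, 14 genes, had 1 higher and 1 lower after I/R in KO and 2 higher and 1 lower after I/R in WT. Rescaled to equal sums, 5 were higher and 0 lower in KO, and 6 higher and 0 lower in WT. Maff, a small MAF partner, had 3.84 and 3.76 FPKM in KO I/R, 8.36 and 6.47 in WT I/R, 1.92 and 1.08 in KO and 1.15 and 1.07 in WT. It rose after I/R by 0.96 in KO (adjusted p = 0.0127) and 1.98 in WT (adjusted p = 0.000328), and was lower in KO I/R than in WT I/R by a log2 difference of -0.80 (adjusted p = 0.0490). Cul3, the ligase scaffold that KEAP1 recruits, fell in WT by 0.37 (adjusted p = 0.00777; without WT library 2, adjusted p = 0.0535; with equal sums -0.08, adjusted p = 0.444), and Dpp3, which binds KEAP1, rose in WT by 0.20 (adjusted p = 0.0462), a call kept in 7 of 16 settings and lost without any 1 of the WT, WT I/R and KO I/R libraries (adjusted p up to 0.161).

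The list for glutathione synthesis and use, with 19 of 23 genes tested, had 1 higher and 8 lower after I/R in KO, and 3 higher and 9 lower after I/R in WT, with medians of -0.15 and -0.30. The gene higher in KO was Gpx7, and the 3 higher in WT were Gpx7 and Gpx8, glutathione peroxidase family members of the endoplasmic reticulum, and Mgst1, a microsomal glutathione transferase named after its values were seen (0.63, adjusted p = 0.00334). Gpx7 averaged 2.86 ± 0.26 FPKM in KO I/R, 4.77 ± 0.71 in WT I/R, 1.43 ± 0.021 in KO and 0.659 ± 0.19 in WT (SD, n = 2), and rose by 0.66 in KO (adjusted p = 0.0159) and 1.80 in WT (adjusted p = 0.000173). Gpx8 rose in WT by 1.09 (adjusted p = 0.00408), with 0.19 in KO (adjusted p = 0.502). Chac2, which degrades glutathione, fell by 0.68 in KO (adjusted p = 0.0129) and 0.99 in WT (adjusted p = 0.00125). Dpep1, a brush border dipeptidase, and Hagh, a hydrolase of the glyoxalase system, were higher in KO I/R than in WT I/R, by 0.76 (adjusted p = 0.0148) and 0.41 (adjusted p = 0.0348). Rescaled to equal sums, the list had 1 higher and 5 lower in KO and 3 higher and 7 lower in WT.

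Of 16 thioredoxin and peroxiredoxin genes, 2 were higher and 6 lower after I/R in KO, and 3 were higher and 5 lower in WT. Prdx4, the peroxiredoxin of the endoplasmic reticulum, rose by 0.40 in KO (adjusted p = 0.0199) and 0.81 in WT (adjusted p = 0.000565), and the stress sensor Sesn3 rose by 0.52 (adjusted p = 0.0215) and 0.72 (adjusted p = 0.00284). Msrb1, a methionine sulfoxide reductase, fell by 0.67 in KO (adjusted p = 0.0190) and 0.71 in WT (adjusted p = 0.00763). Prdx5 averaged 542 ± 9.3 FPKM in KO I/R, 464 ± 52 in WT I/R, 776 ± 103 in KO and 686 ± 15 in WT (SD, n = 2) and passed as lower in both, by 0.51 in KO and 0.57 in WT. The call in KO held in 8 of 16 settings (adjusted p up to 0.160) and that in WT in 13 of 16, being lost with equal sums (-0.27, adjusted p = 0.0521) and without WT library 2 (adjusted p = 0.0591) or WT I/R library 2 (adjusted p = 0.0606). Txn1, the substrate of Txnrd1, did not pass in either (-0.35 in KO and -0.06 in WT). Equal sums turned the split to 2 higher and 3 lower in KO and 5 higher and 1 lower in WT.

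NADPH-producing enzymes other than G6pdx, with 14 of 15 tested, had 0 higher and 5 lower after I/R in KO and 2 higher and 5 lower in WT. Me1, malic enzyme, averaged 105 ± 3.2 FPKM in KO I/R, 89.5 ± 13 in WT I/R, 196 ± 21 in KO and 183 ± 14 in WT (SD, n = 2), and fell by 0.89 in KO (adjusted p = 0.00554) and 1.03 in WT (adjusted p = 0.00101). The folate enzymes Aldh1l1 and Mthfd1 fell in both genotypes, by 0.47 and 0.39 in KO and by 0.87 and 0.79 in WT, where the calls in KO were lost with equal sums (adjusted p = 0.124 and 0.291). Idh1, cytosolic isocitrate dehydrogenase, and Mthfd1 were higher in KO I/R than in WT I/R, by 0.56 (adjusted p = 0.0485) and 0.40 (adjusted p = 0.0282). Equal sums gave 1 higher and 1 lower in KO and 6 higher and 4 lower in WT.

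Of 8 heme and iron targets, 2 were higher and 2 lower after I/R in KO, and 2 were higher and 1 lower in WT. Equal sums gave 2 higher and 0 lower in KO and 6 higher and 0 lower in WT. Hmox1, heme oxygenase 1, had 36.2 and 41.4 FPKM in KO I/R, 59.6 and 66.5 in WT I/R, 25.8 and 24.5 in KO and 29.5 and 35.2 in WT. It rose by 0.60 in KO (adjusted p = 0.0134) and 0.94 in WT (adjusted p = 0.000959), and was lower in KO I/R than in WT I/R (-0.69, adjusted p = 0.0243). Slc40a1, the iron exporter ferroportin, rose in both genotypes (0.66 in KO and 0.85 in WT), and Fech, ferrochelatase, fell in both (by 0.34 in KO and 0.50 in WT). With equal sums Fech passed in neither, at -0.09 in KO (adjusted p = 0.429) and -0.21 in WT (adjusted p = 0.0755). Hmox1 and Slc40a1 are also expressed in macrophages, whose markers were higher for 8 of 9 tested genes after I/R in each genotype, and their part in the result was not tested.

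Of 17 detoxification targets tested out of 19, 4 were higher and 6 lower after I/R in KO, and 6 higher and 4 lower in WT. Equal sums gave 5 higher and 5 lower in KO and 9 higher and 4 lower in WT, and moved the list median to 0.04 in KO and 0.47 in WT, against -0.19 and 0.24 as deposited. Akr1b8, an aldo-keto reductase, had 6.27 and 7.83 FPKM in KO I/R, 16.7 and 18.8 in WT I/R, 1.94 and 1.06 in KO and 1.61 and 1.48 in WT. It rose by 1.70 in KO (adjusted p = 0.00216) and 2.88 in WT (adjusted p = 0.000107) and was lower in KO I/R than in WT I/R (-1.22, adjusted p = 0.0191). Cbr3, a carbonyl reductase, had 3.12 and 4.16 FPKM in KO I/R, 9.75 and 7.56 in WT I/R, 1.82 and 1.22 in KO and 1.67 and 0.888 in WT. It rose by 0.88 in KO (adjusted p = 0.0333) and 2.09 in WT (adjusted p = 0.000600), and was lower in KO I/R than in WT I/R (-1.06, adjusted p = 0.0424). Cyp2a5 fell by 1.94 in KO (adjusted p = 0.00323) and 1.93 in WT (adjusted p = 0.000982). Akr1b8 and Cyp2a5 belong to families with similar members, so their counts are uncertain where reads could be split.

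**Figure D5:**
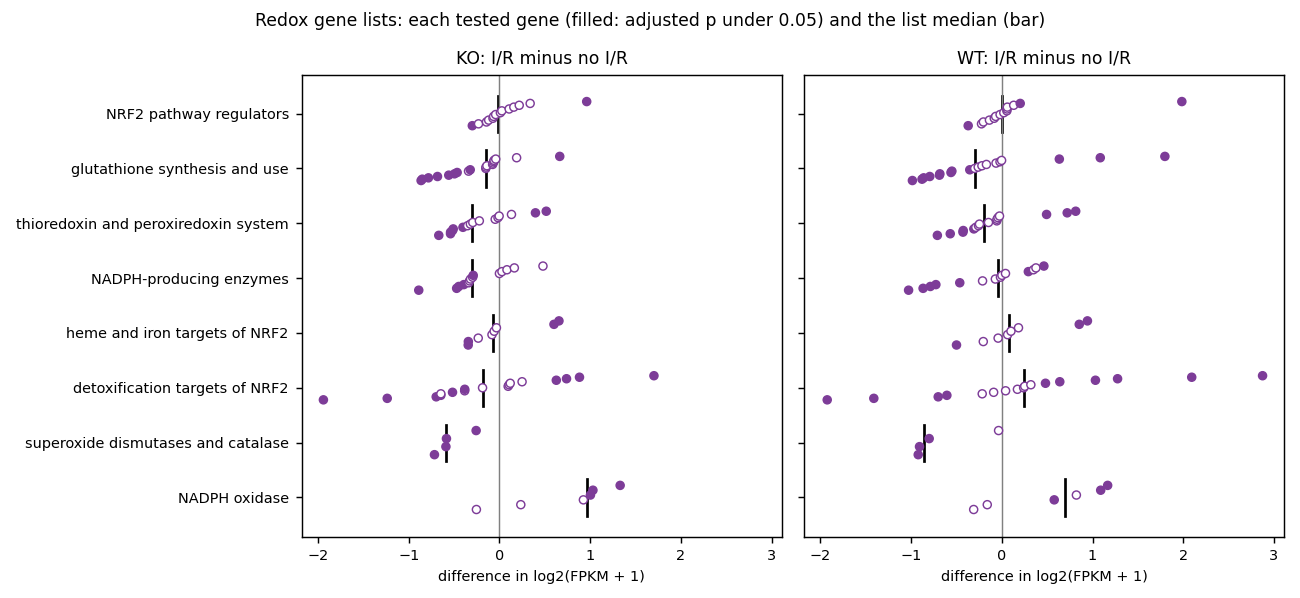
Log2 difference of I/R against no I/R in KO (left) and WT (right) for each tested gene of the 8 redox lists (dots, filled for adjusted p under 0.05), with a bar at the list median. Detoxification targets spread widest, from -1.94 to 1.70 in KO and from -1.93 to 2.88 in WT, while the dismutase and catalase list lies at or below 0.

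Superoxide dismutases and catalase, 4 genes, had 0 higher and 4 lower after I/R in KO and 0 higher and 3 lower in WT, and with equal sums 0 higher and 3 lower in KO and 1 higher and 3 lower in WT. Cat averaged 282 ± 0.31 FPKM in KO I/R, 240 ± 21 in WT I/R, 426 ± 6.3 in KO and 419 ± 8.2 in WT (SD, n = 2), and fell by 0.59 in KO (adjusted p = 0.00599) and 0.80 in WT (adjusted p = 0.000616). Sod1 fell by 0.72 in KO (adjusted p = 0.0139) and 0.92 in WT (adjusted p = 0.00224). Sod2, the mitochondrial dismutase, fell by 0.58 in KO (adjusted p = 0.00401) and 0.91 in WT (adjusted p = 0.000249), and was higher in KO I/R than in WT I/R by 0.47 (adjusted p = 0.0226). Proximal tubule markers moved the same way: 4 of 12 were lower after I/R in KO and 10 of 12 in WT, with 3 higher in KO I/R than in WT I/R. Their part in the result was not tested.

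NADPH oxidase genes, 6 of 10 tested, had 3 higher and 0 lower in each genotype, as with equal sums: Cybb (1.33 in KO and 1.17 in WT), Ncf1 (1.03 and 1.09) and Ncf4 (1.00 and 0.58), subunits of the phagocyte oxidase. The call of Ncf4 in WT was lost without WT library 2, WT I/R library 1 or WT I/R library 2 (adjusted p between 0.0574 and 0.0964). Macrophage markers rose beside them, as counted above, and their part was not tested. Nox4, the tubular oxidase, averaged 56.2 ± 2.7 FPKM in KO I/R, 34.5 ± 3.3 in WT I/R, 48.6 ± 14 in KO and 43.1 ± 6.5 in WT (SD, n = 2) and did not pass between KO I/R and WT I/R (0.69, adjusted p = 0.0879). Cyba, the shared membrane subunit, differed by 0.06 (adjusted p = 0.857).

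For scale, 11 of 12 tubular injury markers were higher after I/R in each genotype, and 8 of 12 were lower in KO I/R than in WT I/R. Krt20 (6.92 ± 0.017 FPKM in KO I/R and 24.3 ± 2.8 in WT I/R, SD, n = 2 each) and Krt18 (19.0 ± 1.6 and 58.4 ± 9.4 in the same groups) were lower by log2 differences of -1.67 (adjusted p = 0.00288) and -1.56 (adjusted p = 0.00824). The call of Krt20 held in all 16 settings and that of Krt18 in 14 of 16. Of all 13304 tested genes, 429 were lower and 371 higher in KO I/R than in WT I/R, 6.01% in all. In the 8 redox lists, Hmox1, Maff, Akr1b8 and Cbr3 were the 4 genes lower in KO I/R than in WT I/R. Dpep1, Hagh, Idh1, Mthfd1 and Sod2 were the 5 that were higher. Each of these 9 calls was lost without any 1 of the 4 I/R libraries, with adjusted p between 0.0590 and 0.251. The injury markers and the proximal tubule markers differed between the same groups, and their part in these results was not tested. Without I/R, 0 genes of any of these lists passed the test between KO and WT.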

How the data were processed

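Whole-kidney poly-A RNA of 8 libraries in 4 groups of 2 was analysed. The authors deposited FPKM for each gene. The submitters' processing notes name build GRCm39, featureCounts 1.5.0-p3 and DESeq2 1.20.0; the file's coordinates match GRCm38, with 53499 of 54409 matched genes identical, and are printed as such. No source used here gives the aligner, the strand setting or the FPKM formula. FPKM times gene length gave whole reads for 100% of values within 0.05 reads, and 3 reads correspond to 0.154 to 0.208 FPKM for a gene of 1 kb. FPKM rested on library sizes of 0.857 to 1.07 times each library's reads. These sizes ran in the same order as median-ratio size factors, which scale a library by its median gene. They went from 1.44513e+07 in KO library 1 (factor 0.863) to 1.94206e+07 in WT I/R library 2 (factor 1.15). The limma-voom fit used such factors too, so it is not a separate check of the scale. Floors cover counting error only.

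Group means of log2(FPKM + 1) were fitted for genes averaging 1 FPKM or more with limma 3.58.1 (R 4.3.3), with a mean-variance trend and Benjamini-Hochberg adjustment over 13304 genes, after a test on simulated data. Comparisons were I/R in each genotype, genotype with and without I/R, and their interaction. Alternatives were a pseudocount of 0.1, no filter, a filter at 5 FPKM, equal sums, only the groups compared, the replicate number as a block, limma-voom on recovered reads, and leaving out each library. The members and gene lists were chosen with earlier results of these data known. Named genes are all members, per list up to 3 called genes with the largest I/R difference in WT and up to 3 for KO after I/R (otherwise the 2 with the highest mean), the 3 label checks and the 3 nearest profiles of Nfe2l2, Keap1, Nqo1 and Srxn1.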

Additional observations from a re-analysis of the deposited data

Results flagged for a closer look

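Gclc and Txnrd1 moved in opposite directions after I/R in the 2 genotypes, with no overlap between libraries in either. For Gclc the I/R libraries were lower in KO (73.1 and 76.8 FPKM in KO I/R, 105.1 and 91.2 in KO) and higher in WT (93.4 and 81.9 in WT I/R, 77.7 and 74.4 in WT). The difference of the log2 differences was -0.58, and limma's interaction test gave an adjusted p of 0.125, with a range of 0.0611 to 0.385 over the alternatives. For Txnrd1 it was -0.31 with an adjusted p of 0.198, with a range of 0.169 to 0.499 over the alternatives. With libraries rescaled to the same sum, the Txnrd1 difference in KO turned to 0.03. Neither interaction passed.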

How the results depend on the processing

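The 10 genes in 5 comparisons gave 740 alternative values: 660 kept direction and side of the threshold, 42 lost a call, 16 gained one and 22 turned sign, 1 of them a called value. Calls of Srxn1, G6pdx and Osgin1 for I/R in WT held in all 16 settings. For 33 other named genes, 911 of 1063 alternatives of called values kept the call and 152 lost it, with none reversed. The cause was not tested except where fewer libraries were fitted.

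With equal sums, Gsr in WT came to 0.0501, Keap1 to 0.20 in KO and 0.0885 in WT, Txnrd1 in KO to 0.0320, Gclm and Osgin1 for KO after I/R to -0.0752 and -0.000856, and Keap1 and G6pdx for KO without I/R to -0.0436 and -0.0391. Leaving out 1 library turned the sign of some uncalled values. For I/R in KO, Keap1 ranged from -0.0754 to 0.00768 and Srxn1 from -0.0263 to 0.0918. For KO after I/R, Gclm ranged from -0.0262 to 0.0908 and Osgin1 from -0.0236 to 0.229. For KO without I/R, Nfe2l2 ranged from -0.138 to 0.119, Keap1 from -0.0552 to 0.0933, Nqo1 from -0.208 to 0.0199 and G6pdx from -0.0387 to 0.0876. For the interaction, Gclm ranged from -0.234 to 0.0305.

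Members called for I/R in KO were 2 with no filter and 2 with only the groups compared, and for KO after I/R 1 with equal sums, where 1126 of all genes were called. Leaving out each library gave 0 to 4 members for I/R in KO, 3 to 7 for I/R in WT and 0 for the others. Genes called with those libraries left out ran from 583 to 3305 for I/R in KO, 3181 to 5453 for I/R in WT, 1 to 6 for KO without I/R, 8 to 1262 for KO after I/R and 0 to 206 for the interaction; a lone library is then taken to vary like the other groups. With no filter they were 1790 for I/R in KO, 10 for KO without I/R and 305 for KO after I/R. With only the groups compared they were 1556 for I/R in KO and 0 for KO without I/R. A pseudocount of 0.1 gave 2 for KO without I/R and 14 for the interaction, a filter at 5 FPKM 96 and equal sums 61 for the interaction. Limma-voom gave 3179 for I/R in KO, 5351 for I/R in WT, 1499 for KO after I/R, 0 for KO without I/R and 178 for the interaction.

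The share of calls that were higher was 84.4% with equal sums and 43.3% as deposited for I/R in KO, 79.5% and 46.5% for I/R in WT and 20.1% and 46.4% for KO after I/R.

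Deviations of same-numbered libraries from their group means had correlations over genes between -0.0827 and 0.161 across pairs of groups. With 2 libraries a group, these values cannot show whether same-numbered libraries share an animal or a batch. With the replicate block, 2412 genes were called for I/R in KO, 4726 for I/R in WT, 461 for KO after I/R, 1 for KO without I/R and 9 for the interaction, with 3 members for I/R in KO and 5 for I/R in WT. Each member held at least 571 reads in every library, and with 2 libraries a group a log2 difference of -0.49 between genotypes (Osgin1 without I/R) did not pass.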
